A study of Arabidopsis thaliana with 6 samples.

Results

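Genes of cell wall loosening were followed in whole Arabidopsis seedlings at 4 °C and 20 °C: the expansin-like A genes EXLA1 and EXLA2, the alpha-expansins EXPA7 and EXPA8, and XTH16 and XTH19 of the xyloglucan endotransglucosylase/hydrolases (XTH). Each of these 6 genes had 1 probe set annotated to it alone, out of 13513 single-gene probe sets on the array. The 6 were chosen by name, with earlier results for these same arrays known, out of 29 single-gene probe sets of the 2 families (19 expansins and 10 XTH genes). The choice was thus made with the intensities of the 3 lines at both temperatures in view, and which of those values decided it is not recorded. Their differences between temperatures and between lines are therefore given as a description, without a test, and their standing in the fit of all probe sets supports nothing by itself. All 6 passed the filter on dim probe sets, as did 12 of the 23 other family genes. The filter took the mean over all 6 arrays, and EXLA2 passed through its 4 °C arrays (50.6 to 66.7). Its 20 °C intensities, 13.5 to 22.6, lay below those of EXPB2 (25 to 30.7 over all arrays), which was dropped.

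The plant cell wall is a network of cellulose microfibrils tied together by xyloglucan and embedded in pectin, and a growing cell has to let this network slip. Expansins loosen it in acid conditions without cutting a polymer, whereas XTH enzymes cut xyloglucan chains and join the cut end to another chain or to water. The expansin-like A proteins share the domains of expansins, and wall-loosening activity has not been established for them.

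The samples were pools of 40 to 60 seedlings, 7 days old, moved for 3 h in the light to 4 °C or kept at 20 °C. The 6 groups were sfr6 at 4 °C, sfr6 at 20 °C, cls8 at 4 °C, cls8 at 20 °C, the wild type at 4 °C and the wild type at 20 °C, with 1 Affymetrix ATH1 array each and no replicate. All were in the Col-0 background, stratified for 4 days at 4 °C and grown on MS medium. Both mutants are EMS mutants and each is 1 line: sfr6 lacks a Mediator subunit and is sensitive to freezing, and cls8 carries a defect in ribonucleotide reductase and is sensitive to chilling. The titles of both cls8 arrays carry the word repeat, so whatever was rerun coincides with the genotype, and the effects cannot be told apart.

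Every array had been scaled to a trimmed mean intensity of 100, and median intensities lay between 41.7 and 45.2. Per the labels, the 20 °C array of sfr6 had 1101 outlier cells and that of cls8 had 922, against 406 to 517 on the 4 other arrays. Whole seedlings were checked with markers, of which 2 of 7 for root hairs, 1 of 3 for root, 1 of 4 for guard cells, 1 of 3 for dividing cells and 4 of 4 for mesophyll were measured, none of them at 0. The summed root hair markers (EXPA7 itself and EXPA18) ranged from 104.2 to 113.8 at 4 °C and from 95.2 to 116.2 at 20 °C. The root marker PYK10 ranged from 2852 to 3418 at 4 °C and from 2585 to 3338 at 20 °C, and the guard cell marker FMA from 36.3 to 45.2 and from 37.9 to 40.1. Within lines PYK10 was higher at 4 °C in sfr6 (3155 against 2956) and cls8 (3418 against 2585). It was lower at 4 °C in the wild type (2852 against 3338). AUR1, a kinase of dividing cells, ranged from 87.7 to 116.8 at 4 °C and from 109.9 to 137.6 at 20 °C. Within lines it was lower at 4 °C in all 3, at a fitted log2 difference of -0.34 ± 0.11 (SE), and it was not called. The sum of the 4 mesophyll markers differed in opposite directions by line: it was 11772 at 4 °C and 12934 at 20 °C in sfr6, 14864 at 4 °C and 10654 at 20 °C in cls8, and, in wild-type seedlings, 10666 at 4 °C against 15538 at 20 °C. The part of tissue shares in the values of the 6 genes was not tested.

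At 4 °C the 2 expansin-like A genes and XTH19 had higher intensities than at 20 °C in all 3 lines, EXPA8 and XTH16 had lower ones in all 3 lines, and EXPA7 differed little. These are whole seedlings, in which fewer cells of a type and less RNA per cell cannot be told apart. At 4 °C EXLA1, an expansin-like A gene, read 566.5 in sfr6, 300.8 in cls8 and 322.4 in the wild type, against 161, 176.6 and 146.3 in those lines at 20 °C. The lowest EXLA1 value at 4 °C lay well above the highest at 20 °C, and the sfr6 array at 4 °C stood far above the other lines. The mean was 396.6 ± 147.6 at 4 °C and 161.3 ± 15.2 at 20 °C (SD, n = 3 lines).

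EXLA2, whose loss is known to alter the response of Arabidopsis to a fungal pathogen, was dim at 20 °C. At 4 °C it read 66.7 in sfr6, 58.6 in cls8 and 50.6 in the wild type, against 16.5, 13.5 and 22.6 in the same lines at 20 °C. The 2 temperatures did not overlap, and the ratio of 4 °C to 20 °C was 4.04 in sfr6, 4.34 in cls8 and 2.24 in the wild type. Because its 20 °C intensities lie close to the pseudocount of 14.2 added before taking log2, its log2 difference depends on that choice: 1.2 with it, 1.77 with none and 0.74 with the median of all values. EXLA1 and EXLA2 were correlated at r = 0.90 across the 6 arrays, which are 3 pairs sharing a line, so this is a description.

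XTH19 belongs to a subgroup of XTH genes expressed in roots. At 4 °C its intensity was 59.6 in sfr6, 117.4 in cls8 and 89.2 in the wild type, against 37.3, 40.4 and 31.4 in those lines at 20 °C. The temperatures did not overlap, but the sfr6 array at 4 °C was the lowest of the cold arrays. XTH19 was 1.6 times as high at 4 °C as at 20 °C in sfr6, against 2.91 times in cls8 and 2.84 times in the wild type.

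EXPA8, an alpha-expansin, ran the other way. At 4 °C it read 68.7 in sfr6, 276.2 in cls8 and 160.1 in the wild type, against 318.1, 524.5 and 353 in those lines at 20 °C. No 4 °C array reached the lowest 20 °C array, and sfr6 had the lowest value at each temperature and cls8 the highest. In sfr6 the 20 °C intensity was 4.63 times that at 4 °C, compared with 1.90 times in cls8 and 2.21 times in the wild type. Across the 6 arrays EXPA8 was correlated with EXLA1 at r = -0.91 and with EXLA2 at r = -0.82, but with XTH19 only at r = -0.39. With XTH16 and EXPA7 its r was 0.69 and -0.11.

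At 4 °C XTH16 read 106.6 in sfr6, 143.2 in cls8 and 209.1 in the wild type, against 147.4, 245.3 and 266.2 in those lines at 20 °C. Within every line the 4 °C array was the lower one, but the temperatures overlapped because the wild type at 4 °C exceeded sfr6 at 20 °C. EXPA7, an expansin expressed in root hair cells, had 4 °C intensities of 57.3 (sfr6), 50.8 (cls8) and 60 (wild type), against 49.4, 55.9 and 65.8 in those lines at 20 °C. Its whole range, 49.4 to 65.8, was narrow, and the temperatures overlapped.

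**Figure D1:**
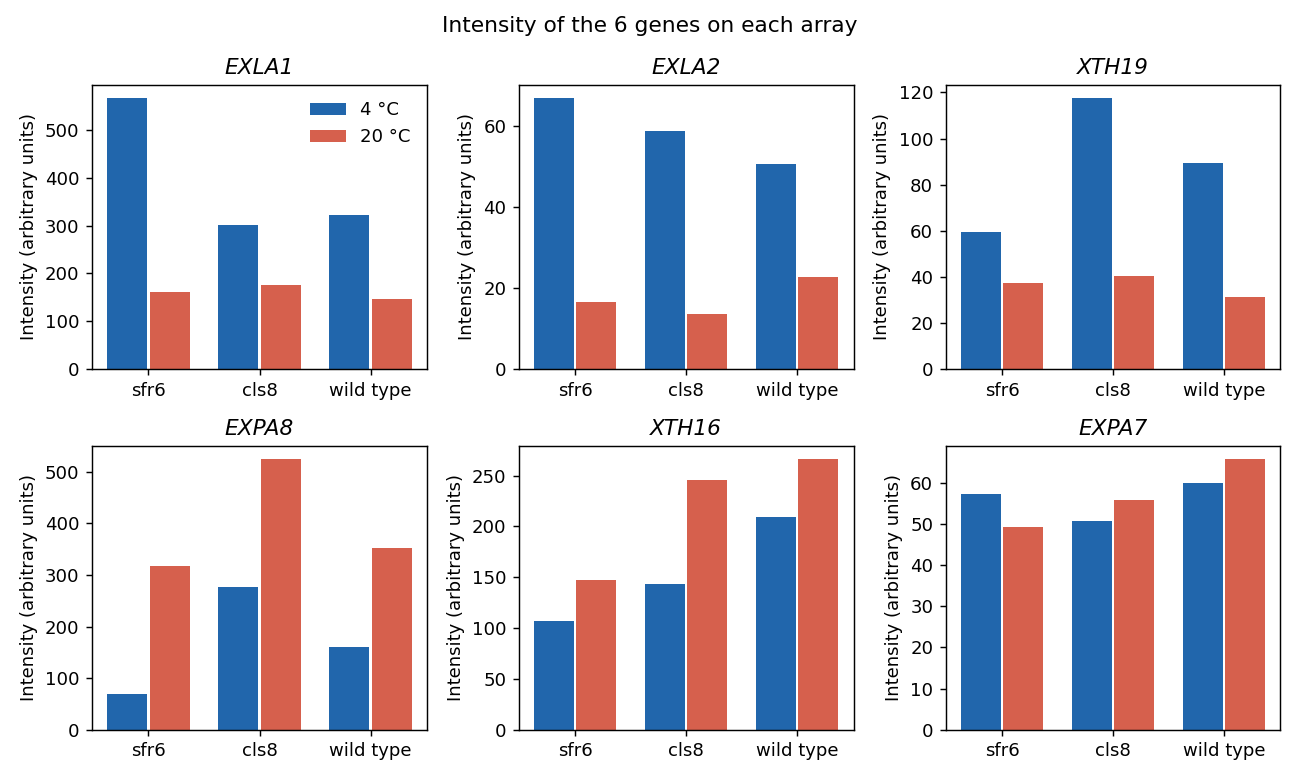
Deposited intensity (linear scale from 0, arbitrary units) of each gene in sfr6, cls8 and the wild type, with 1 bar for each array at 4 °C (blue) and 20 °C (red). EXLA1, EXLA2 and XTH19 are higher at 4 °C in all 3 lines, EXPA8 and XTH16 are lower in all 3, and EXPA7 stays between 49.4 and 65.8.

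The fit over all 13648 probe sets that passed the filter, with line and temperature as terms, gave log2 differences between 4 °C and 20 °C of 1.17 ± 0.17 (SE) for EXLA1, 1.2 ± 0.15 for EXLA2 and 0.99 ± 0.16 for XTH19. EXPA8 had a difference of -1.32 ± 0.19, XTH16 one of -0.49 ± 0.11 and EXPA7 one of -0.02 ± 0.12. The median of the 6 was 0.49, beside -0.04 over all probe sets tested, but the 6 went in both directions, so it describes no shared rise. With limma's adjusted threshold of 0.05, 5 of the 6 counted as called, 3 higher and 2 lower. The background was 18.8% of all probe sets called, 9.58% as higher and 9.25% as lower at 4 °C, and since the choice had these values in view, nothing is read from the count. The 2 temperatures did not overlap for 4 of the 6 genes, beside 33.1% of all probe sets tested. EXLA2 is 1 of these 4 and passed the filter through its 4 °C arrays, so nothing is read from this count either.

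XTH16 no longer counted as called without either cls8 array (difference -0.37), without both, with no filter (-0.49) or with no term for line (-0.49). EXPA8 was not called with no term for line, at the same difference of -1.32.

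How far each line differed between the temperatures was set out gene by gene, since each log2 difference rests on 1 pair of arrays. In sfr6 the difference was 1.73 for EXLA1, 1.4 for EXLA2, 0.52 for XTH19, -2.0 for EXPA8, -0.42 for XTH16 and 0.17 for EXPA7. In cls8 it was 0.72 for EXLA1, 1.39 for EXLA2, 1.27 for XTH19, -0.89 for EXPA8, -0.72 for XTH16 and -0.11 for EXPA7. In the wild type it was 1.07 for EXLA1, 0.82 for EXLA2, 1.18 for XTH19, -1.07 for EXPA8, -0.33 for XTH16 and -0.11 for EXPA7. On these single pairs of arrays, the difference in sfr6 was the largest of the 3 in size for EXLA1, EXPA8 and EXPA7, close to that in cls8 for EXLA2, between the other lines for XTH16 and the smallest for XTH19.

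A fit with an extra cold term for a single line set its response apart. The cold difference in sfr6 minus that in the mean of the other lines was 0.83 ± 0.23 (SE) for EXLA1, -1.02 ± 0.21 for EXPA8 and -0.71 ± 0.25 for XTH19. For EXLA2, EXPA7 and XTH16 it was 0.29, 0.28 and 0.11. None of the 6 counted as called in limma, where 0 of 13648 probe sets were (0%, with 668 at an unadjusted p under 0.05). For cls8 minus the mean of the other lines it was -0.68 ± 0.27 for EXLA1 and 0.65 ± 0.31 for EXPA8, with 0 of the 6 called and 0.0147% of all probe sets called (948 at an unadjusted p under 0.05). For the wild type minus the mean of the other lines it was -0.58 ± 0.29 for EXLA2 and between -0.16 and 0.37 for the other genes, with 0 of the 6 and 0% of all probe sets called (707 at an unadjusted p under 0.05). These fits have 1 residual degree of freedom. The 3 terms are built from the same 3 differences within lines, so they are not separate results. For EXPA8 the differences in cls8 (-0.89) and the wild type (-1.07) were close, and that in sfr6 was -2.0. Its value for cls8 thus largely mirrors that for sfr6. The 4 mesophyll markers had a median of 0.86 in the cold term of cls8, -0.69 in that of the wild type and -0.13 in that of sfr6, with none called, and their part in the values of the 6 genes was not tested.

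**Figure D2:**
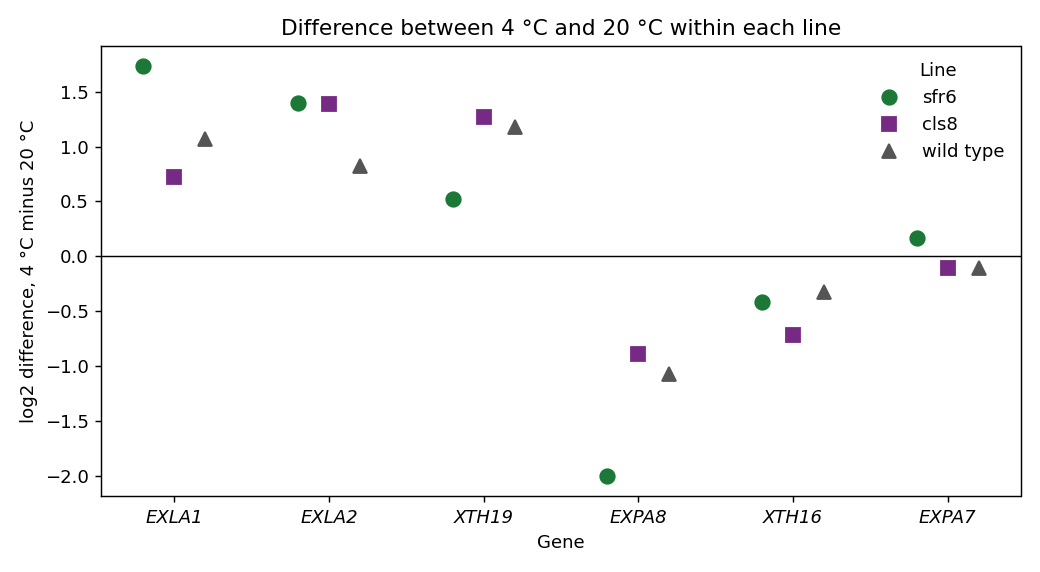
The log2 difference between 4 °C and 20 °C (y axis, log2 of intensity plus the pseudocount) for each gene in sfr6, cls8 and the wild type, with 1 point for each pair of arrays. EXPA8 reaches -2.0 in sfr6 against -1.07 in the wild type, while XTH19 is at 0.52 in sfr6 and 1.18 in the wild type.

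sfr6 was next set against the wild type at each temperature. XTH16 was lower in sfr6 by a similar amount at both temperatures: the ratio of sfr6 to the wild type was 0.51 at 4 °C and 0.554 at 20 °C. EXPA8 was at 0.429 of the wild-type intensity at 4 °C and at 0.901 of it at 20 °C. EXLA1 was 1.76 times the wild type in sfr6 at 4 °C and 1.1 times at 20 °C. XTH19 was at 0.668 of the wild type at 4 °C and 1.19 times it at 20 °C, and EXLA2 was 1.32 times and 0.73 times the wild type at 4 °C and 20 °C. For these 2 genes the sign differed between the temperatures. EXPA7 was at 0.955 of the wild type at 4 °C and 0.751 of it at 20 °C.

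Over both temperatures the fit placed sfr6 relative to the wild type at a log2 difference of -0.84 ± 0.13 (SE) for XTH16, -0.61 ± 0.23 for EXPA8 and 0.46 ± 0.20 for EXLA1. It was -0.19 ± 0.14 for EXPA7, -0.16 ± 0.19 for XTH19 and 0.03 ± 0.18 for EXLA2. Of the 6, 1 counted as called in limma, XTH16 as lower, beside 1.34% of all probe sets called and 0.975% called as lower. XTH16 was not called without either sfr6 array (differences of -0.79 and -0.89) or without the wild-type array at 4 °C (-0.72). The difference of EXPA8 rested on which sfr6 array was kept: it was -0.10 without the 4 °C array of sfr6, and -1.12 and called without the 20 °C array. That of EXLA1 was 0.04 without the sfr6 array at 4 °C and 0.87 without the one at 20 °C, and was not called in either fit. For EXPA7 the fits with 1 array left out ran from -0.33 to -0.05.

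cls8 was set against the wild type in the same way. EXPA8 was higher in cls8 at both temperatures, at 1.73 times the wild type in cls8 at 4 °C and 1.49 times at 20 °C. XTH16 was at 0.685 of the wild type at 4 °C and 0.921 at 20 °C, and XTH19 was 1.32 and 1.29 times the wild type at 4 °C and 20 °C. EXLA1 was at 0.933 of the wild type at 4 °C and 1.21 times it at 20 °C, and EXLA2 was 1.16 times the wild type at 4 °C and 0.597 of it at 20 °C. EXPA7 was at 0.847 of the wild type at 4 °C and 0.85 at 20 °C.

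The fitted log2 difference between cls8 and the wild type was 0.64 ± 0.23 (SE) for EXPA8, 0.30 ± 0.19 for XTH19, -0.31 ± 0.13 for XTH16 and -0.19 ± 0.14 for EXPA7. It was 0.08 ± 0.20 for EXLA1 and -0.12 ± 0.18 for EXLA2. In limma 0 of the 6 counted as called, beside 0.117% of all probe sets (872 of 13648 had an unadjusted p under 0.05). With 1 array left out, these differences ran from 0.32 (without the cls8 array at 4 °C) to 0.97 (without the cls8 array at 20 °C) for EXPA8, and from 0.09 to 0.51 for XTH19 and -0.13 to -0.48 for XTH16 in the same fits, with the fits without a wild-type array in between. The sfr6 and cls8 comparisons share the wild-type arrays, so EXPA8 at -0.61 in sfr6 and 0.64 in cls8 are values side by side and not a comparison of the mutants.

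**Figure D3:**
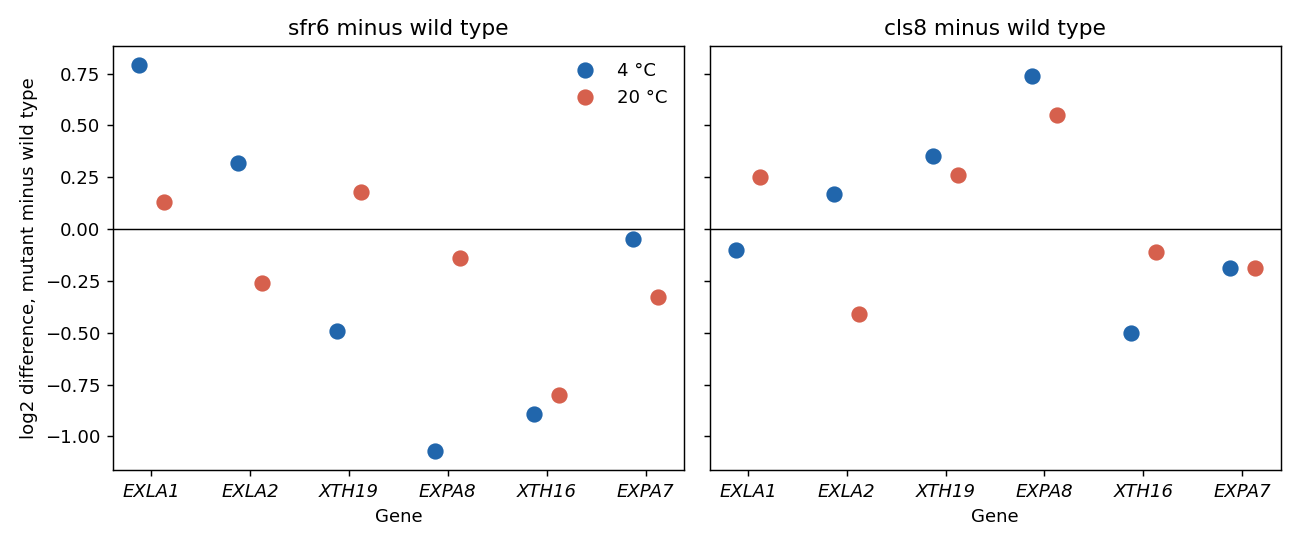
The log2 difference of sfr6 minus the wild type (left) and cls8 minus the wild type (right) for each gene at 4 °C (blue) and 20 °C (red), with 1 point for each pair of arrays. XTH16 is at -0.89 and -0.80 in sfr6 at 4 °C and 20 °C, and EXPA8 is above 0 in cls8 and below 0 in sfr6 at both temperatures.

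The other family genes found by name on single-gene probe sets were set beside the 6. Probe sets with several genes (503) or no gene (8730) were not searched, so these are not the whole families. XTH24, for example, lies near XTH19 in the gene order and was not among the genes found. The family lists, like the 6 genes, were chosen with earlier results known, so adjusted p-values of their genes are a description. Of the 18 family genes kept by the filter, 6 were called higher and 2 lower at 4 °C in limma, and 5 of these 8 are among the 6 genes chosen with the values in view. Outside the 6 genes, 3 of 12 rose (XTH18, XTH20 and XTH32), none fell and 9 did not pass, with a median log2 difference of 0.09. The share of all probe sets called was 18.8%, with 9.58% higher and 9.25% lower. All 3 called were XTH genes called higher, and no measured expansin outside the 6 was called. Nothing is read from a count of 3 in 12. The temperatures did not overlap for 4 of these 12, XTH20 included, about the share over all probe sets (33.1%), and nothing is read from this count either. At 4 °C XTH32 read 706.8 in sfr6, 566 in cls8 and 546.1 in the wild type, against 321.8, 334.2 and 313 at 20 °C, a log2 difference of 0.87 ± 0.11 (limma adjusted p = 0.000905, higher in 3 of 3 lines).

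XTH19 lies next to XTH18 in the RefSeq gene order, and both belong with XTH20 to the same subgroup. At 4 °C XTH18 read 131.8 in sfr6, 94.6 in cls8 and 85.6 in the wild type, against 51.7, 69.3 and 64.2 at 20 °C (log2 difference 0.63 ± 0.16, limma adjusted p = 0.0269, higher in 3 of 3 lines). Its difference was 1.15 in sfr6, 0.38 in cls8 and 0.35 in the wild type, whereas XTH19 had its smallest difference in sfr6. Without either sfr6 array XTH18 had a difference of 0.37 and did not pass. For XTH20 the log2 difference was 0.59 ± 0.13 (limma adjusted p = 0.0145, higher in 3 of 3 lines), with 0.39 in sfr6, 0.85 in cls8 and 0.53 in the wild type. Without either cls8 array XTH20 was at 0.46 and did not pass. With no filter neither passed, at limma adjusted p of 0.115 for XTH18 and 0.0765 for XTH20.

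EXLA1 lies next to EXLA3, the other expansin-like A gene with a probe set of its own. EXLA3 was dropped by the filter. At 4 °C it read 13.6 in sfr6, 7.6 in cls8 and 8.6 in the wild type, against 1.3, 5.5 and 5.8 at 20 °C. Closely related genes such as these can share sequence, and how far each probe set reads a relative was not tested.

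EXPA18, the other root hair expansin measured, had a log2 difference of 0.07 between 4 °C and 20 °C and did not pass, as EXPA7 did not. The alpha-expansins EXPA4, EXPA9, EXPA15 and EXPA20 had differences from -0.15 to 0.15, with none called. The beta-expansins EXPB1 and EXPB3 and the expansin-like EXLB1 had 0.01, 0.35 and -0.42, and EXGT-A3 of the XTH family had -0.25, all not passing. The 11 family genes dropped by the filter were EXLA3, EXPA16, EXPA21, EXPA24, EXPB2, EXPB5, AT4G30380 (matched by an older expansin-like name), XTH21, XTH26, XTH29 and XTH33, and their intensities ranged from 0.9 to 44.5. No measured family gene outside the 6 passed for sfr6 or cls8. Of all probe sets, only 1.34% were called for sfr6 and 0.117% for cls8, so nothing is read from this.

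**Figure D4:**
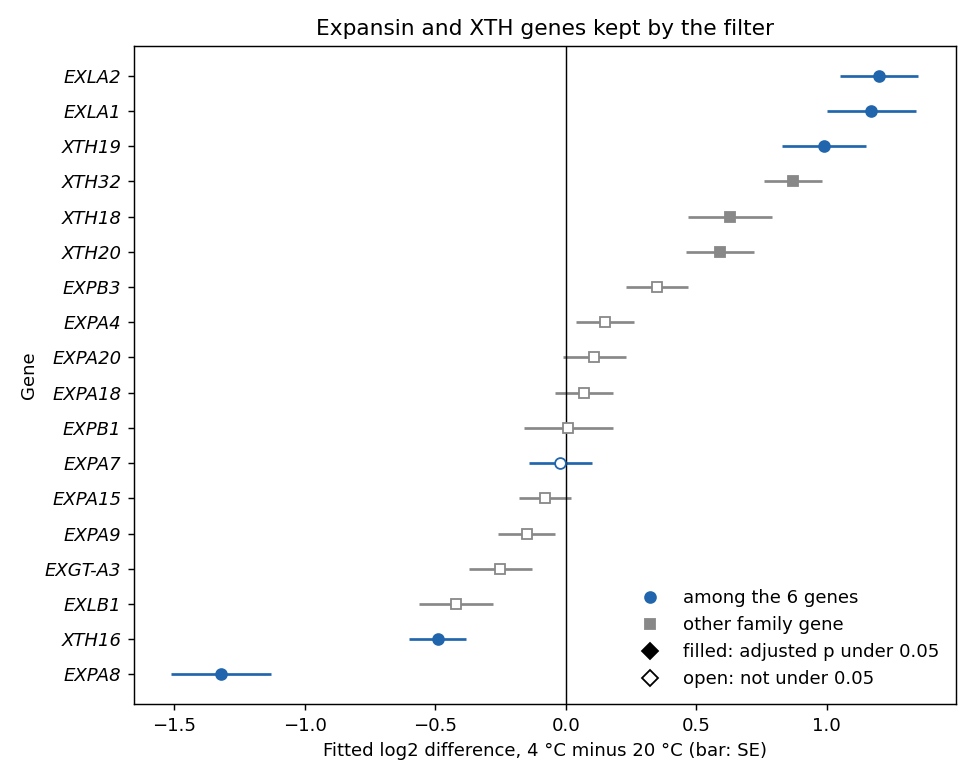
Fitted log2 difference between 4 °C and 20 °C (x axis, bars are SE) of the 18 expansin and XTH genes kept by the filter, with the 6 genes as blue circles and the other family genes as grey squares. Filled symbols are under an adjusted p of 0.05 in limma; EXLA2, EXLA1 and XTH19 lie at the top and EXPA8 at the bottom.

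Other wall and growth genes were compared by name, and these short lists stand beside 18.8% of all probe sets called for temperature (9.58% higher and 9.25% lower), so that nothing is read from their counts. The lists were chosen with earlier results of these data known, so the adjusted p-values of their genes are a description and not independent tests. Of 4 measured pectin genes, PMEPCRF and ATPMEPCRB, both pectin methylesterases, rose at 4 °C, at log2 differences of 0.42 and 1.14 (limma adjusted p = 0.0225 and 0.000269, higher in 3 of 3 lines), and 2 did not pass (median of the list 0.30, beside -0.04 over all probe sets tested). None of 4 xyloglucan synthesis genes (CSLC04, CSLC5, CSLC6 and CSLC12) passed, at a median of 0.13, nor did CML42 and CML43 of the touch and calcium list (median -0.31). COB and GUT2, which the cellulose list matched by symbol or synonym, did not pass either (median -0.07). Whether GUT2 acts on cellulose was not checked. PRP39, a splicing factor that the wall protein list caught by its symbol, did not pass (0.13). Of 5 measured auxin and brassinosteroid genes, the auxin-conjugating enzymes GH3.3 and GH3.17 rose, at 0.46 and 0.51 (limma adjusted p = 0.0215 and 0.0279, higher in 3 of 3 lines), and the list had a median of -0.05. Of 3 measured root hair genes, SCN1, which restricts where root hairs form, fell, with a difference of -0.55 (limma adjusted p = 0.00738, lower in 3 of 3 lines), while EXPA7 and EXPA18 did not pass (median -0.02). GH3.3 passed in 8 of 16 settings, GH3.17 in 11 and PMEPCRF in 12. The settings that left out either array of a line or both share the same difference, so the 16 are not separate checks. In sfr6 and in cls8 against the wild type, no gene of these lists passed, and no tissue marker passed in any of the 3 comparisons. Of all probe sets, only 1.34% were called for sfr6 and 0.117% for cls8, so nothing is read from this.

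Finally, the genes with the most similar pattern over the 6 arrays were looked up for each of the 6, by Pearson's r of the log2 values over 7342 other single-gene probe sets. Genes that differ between the temperatures can correlate closely over so few arrays, so r is a description. In all, 93 genes had r over 0.95 with EXLA1, 80 with EXLA2, 50 with XTH19, 51 with EXPA8, 25 with XTH16 and 9 with EXPA7. For EXLA1 the first was AT2G36300 (r = 0.994), which at 4 °C read 215.4 in sfr6, 184.1 in cls8 and 186.2 in the wild type, against 154.1, 153.4 and 143.9 at 20 °C, followed by AT1G75170 and AT3G57070. For EXLA2 they were BOB1 (r = 0.992), AT3G52470 and AT1G28680, and for XTH19 AT2G02870 (r = 0.995), AT2G04280 and AT1G55210. At 4 °C AT1G55210 read 191.7 in sfr6, 275.7 in cls8 and 245.6 in the wild type, against 127.2, 137.8 and 111.6 at 20 °C. This gene was picked for its likeness to XTH19 over the same arrays. That sfr6 was its lowest cold array too is therefore not a separate observation. For EXPA8 they were AILP1 (r = 0.989), AT3G62010 and AT4G01960, for XTH16 AT1G23790 (r = 0.989), AT5G15880 and AT4G15140, and for EXPA7 AT3G61610 (r = 0.979), AT4G14360 and AT3G19790.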

How the data were processed

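The authors deposited intensity values on a linear scale for 22810 probe sets on each of 6 Affymetrix ATH1 arrays. The values show a mean of 100 on each array once the lowest and highest 2% are left out. No label or header names the software that made them. After 64 controls were set aside, log2 of intensity plus 14.2 (the 25th percentile of all values) was taken, and the 13648 probe sets with a mean at or above the 40th percentile were kept. Names came from the platform's probe table, with 13436 of 13513 single-gene probe sets matched to RefSeq genes of TAIR10.1 by gene ID. No coordinates or sequences are printed.

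A linear model (lmFit and eBayes of limma 3.58.1, R 4.3.3, with the variance prior following intensity) was fitted on all kept probe sets with line and temperature as terms, 2 residual degrees of freedom and a prior of 6.82. A further fit added a cold term for 1 line. Tests were two-sided, with Benjamini-Hochberg adjustment over all kept probe sets. Pools, not single plants, were hybridised, 1 array for each group, and precision is limited by the number of arrays.

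The 6 genes and the gene lists were chosen with earlier results of these data known. The named genes were these 6, any listed gene that passed (at most 6 for each list and comparison), and the 3 genes closest to each of the 6. The lists, matched by symbol, covered expansins, XTH genes, xyloglucan, pectin, cellulose, wall proteins, root hairs, auxin and brassinosteroid, touch and calcium, and tissue markers. The alternatives changed the pseudocount, filter, normalization, intensity trend, terms and arrays. With no pseudocount, values of 0 were set to the lowest value above 0.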

Additional observations from a re-analysis of the deposited data

Results flagged for a closer look

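Each value here comes from 1 pair of arrays, was picked because its sign differed between lines or temperatures, and the difference was not tested at that level. The log2 difference of EXPA7 between 4 °C and 20 °C was 0.17 in sfr6, but -0.11 in cls8 and -0.11 in the wild type. The log2 difference of XTH19 between sfr6 and the wild type was -0.49 at 4 °C and 0.18 at 20 °C. For EXLA2 that difference was 0.32 at 4 °C and -0.26 at 20 °C in sfr6, and 0.17 at 4 °C and -0.41 at 20 °C in cls8. For EXLA1 the difference between cls8 and the wild type was -0.10 at 4 °C and 0.25 at 20 °C.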

How the results depend on the processing

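For temperature, the log2 differences ran from 0.90 to 1.4 for EXLA1, 0.74 to 1.77 for EXLA2 and 0.70 to 1.24 for XTH19 over the main setting and 15 alternatives, which is a description, since the genes were chosen with these arrays in view. Over the 6 genes and 6 comparisons, 292 of 318 alternative values kept direction and side of the threshold, 11 were weaker, 1 stronger and 14 turned sign. The cause was not tested. These values are not all separate checks. For temperature, leaving out either array of a line or both gives the same difference, because the line term fits the remaining array exactly. The same holds for arrays of the third line in the mutant comparisons. The turned values were all of genes not called. For temperature, EXPA7 was 0.03 without either array or both arrays of the wild type or of cls8, in a range of -0.11 to 0.03 over the fits with 1 array left out. For sfr6, EXLA2 was -0.03 with no pseudocount, -0.12 without the sfr6 array at 4 °C and -0.26 without the wild-type array at 4 °C (range -0.26 to 0.32), and XTH19 was 0.20 without the sfr6 array at 4 °C (range -0.51 to 0.20). For cls8, EXLA1 was -0.26 when the cls8 array at 20 °C was dropped and -0.0019 when the wild-type array at 4 °C was (range -0.26 to 0.41), and EXLA2 was 0.02 and 0.17 when the cls8 or the wild-type array at 20 °C was (range -0.41 to 0.17). The number of the 6 genes called for temperature (5) was 3 with no term for line and 4 to 5 with 1 array left out. For sfr6 (1) it was 0 with no filter, 0 with no term for temperature, and 0 to 1 with 1 array left out. For cls8 it was 0 in all 13 alternatives.

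Over all probe sets, the calls for temperature (2570) numbered 1445 with no filter, 1511 without both sfr6 arrays, 1589 with no term for line and 1502 to 2292 with 1 array left out. For sfr6 (183) they numbered 18 with no filter, 411 without both cls8 arrays, 0 with no term for temperature (524 at an unadjusted p under 0.05) and 63 to 412 with 1 array left out. For cls8 (16) they numbered 4 with no filter, 1 with no term for temperature and 14 to 27 with 1 array left out. For the cold term of its own they numbered 1 in sfr6 and 1 in the wild type (0 in the main setting) with quantile normalization. For cls8 (2) they numbered 5 with no pseudocount, 4 with the median as pseudocount and 0 with no filter and with quantile normalization. The main model already pairs the arrays of a line for temperature, and the arrays of a temperature for the mutants. The fits with no term for line or for temperature, above, are the unpaired ones.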
